A study of Mus musculus with 4 samples.

Results

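The dividing transit-amplifying cells without Lgr5 are crypt cells that carried transcripts of the division genes Mki67 and Top2a but none detected of the stem cell receptor Lgr5. They also held no detected transcript of the secretory lineage genes Atoh1, Dll1 and Spdef, and few of goblet and Paneth products. They were selected on their own counts: at least 4 unique molecular identifiers (UMIs, counts of single transcripts) of Mki67 plus Top2a, 0 UMIs of Lgr5, Atoh1, Dll1 and Spdef, goblet products (Muc2, Zg16, Fcgbp, Clca1) under 1% and Paneth products (Lyz1, Defa17, Defa24) under 0.5% of gene UMIs. Of 2011 cells that passed the filter (at least 1000 gene UMIs, 500 genes, under 20% mitochondrial UMIs and a top hashtag with at least 60% of hashtag counts), 287 met the rule, or 14.3%. The levels of these 13 genes chose the cells and are given only as a description.

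The cells came from the crypt epithelium of the distal small intestine of 8 mice of genotype Lgr5-EGFP-IRES-CreERT2;Rosa26-mTmG, each given 4-OH-tamoxifen and traced for 48 h (mice 1 to 4) or 72 h (mice 5 to 8). In these mice the drug activates the recombinase in cells that express Lgr5, and the Rosa26 reporter then marks them and their progeny with GFP. After staining for EpCAM, CD31 and CD45, the GFP-high gate gave the clone cells of a mouse and the GFP-negative gate its control epithelium, and both carried the same alleles and had the same treatment. A hashtag antibody marked the mouse, and its clone and control cells were put into opposite ones of the 2 sequenced pools. The EGFP of the Lgr5 allele fluoresces like the GFP of the reporter, so the gate may itself have sorted cells by Lgr5, on which the cells described here were chosen. The age and sex of the mice are not given in the labels.

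Transit-amplifying cells are the rapidly cycling daughters of crypt base stem cells. They divide a few times while they move up the crypt, lose the Wnt-dependent stem program and, where Notch signalling keeps the secretory factor Atoh1 off, become absorptive enterocytes. Mki67 encodes the Ki-67 protein that coats mitotic chromosomes, and Top2a encodes the topoisomerase that untangles replicated DNA. Both genes are switched on late in the cycle by complexes that bind the CCAAT box and the cell cycle homology region of their promoters.

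The cells were chosen on 2 genes of the late cycle, Mki67 and Top2a, so the 250 bases before their starts are shown. A window of Cdc20, which the rule did not use, is added (RefSeq starts, build GRCm38.p6, minus strand, 5′ to 3′). All 3 windows hold both elements described next, which most genes of the mitosis list do not. Capitals mark TTTGAA, the core of the cell cycle homology region, and CCAAT, each searched on both strands (as TTCAAA and ATTGG on the opposite one), and overlapping matches were kept. The windows are chr7:135716380-135716629 for Mki67, chr11:99024190-99024439 for Top2a and chr4:118437344-118437593 for Cdc20, the activator of the anaphase ligase.
Mki67: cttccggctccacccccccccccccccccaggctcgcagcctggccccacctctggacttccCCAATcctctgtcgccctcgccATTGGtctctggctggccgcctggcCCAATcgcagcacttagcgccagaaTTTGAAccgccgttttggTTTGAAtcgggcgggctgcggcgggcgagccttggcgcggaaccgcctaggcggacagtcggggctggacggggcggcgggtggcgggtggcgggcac
Top2a: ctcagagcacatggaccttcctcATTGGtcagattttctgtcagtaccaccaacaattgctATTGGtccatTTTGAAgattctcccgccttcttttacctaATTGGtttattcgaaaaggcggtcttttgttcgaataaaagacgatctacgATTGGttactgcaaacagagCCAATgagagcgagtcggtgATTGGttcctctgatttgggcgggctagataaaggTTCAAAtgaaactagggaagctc
Cdc20: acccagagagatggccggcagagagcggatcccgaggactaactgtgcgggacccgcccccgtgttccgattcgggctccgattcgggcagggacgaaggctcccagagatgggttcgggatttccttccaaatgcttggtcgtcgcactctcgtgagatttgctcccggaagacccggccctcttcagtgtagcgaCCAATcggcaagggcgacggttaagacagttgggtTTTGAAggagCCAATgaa
Of 53 genes on a mitosis list, 43 had a promoter in the table. In 36 of them (83.7%) a start held CCAAT within the 250 bases before it and in 15 (34.9%) TTTGAA, against 37.5% and 18.3% of all 27025 genes with such a window. Both elements were present in 14 of the 43 genes (32.6%), against 6.45% of all genes. Of 32 matched genes on a DNA replication list, 19 held CCAAT and 5 held TTTGAA (15.6%). Of 13 matched early enterocyte genes, 5 held TTTGAA (38.5%) and 4 held CCAAT (30.8%). A match of letters is a description of the window and not a measured binding site.

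Pool 1 held 3342 barcodes and pool 2 held 2110, of which 1 barcode sequence was present in both pools and none among the passing cells. The 287 cells had a median of 16259 UMIs and 4271 genes, against 19951 UMIs and 4393 genes in the 1724 other passing cells. Their mitochondrial share was a median of 12.8%, against 6.40% in the others, and was the higher one in 11 of the 11 mouse and gate samples with at least 10 of the cells. Clone 3 stood apart: its other cells had a median of 1547.5 UMIs, against 15582.5 to 29894 in the remaining samples. The part of these depth and mitochondrial differences in the results was not tested except where a value without them is given.

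Among the 287 cells, Mki67 was detected in 284 cells and Top2a in 233, with both in 230. Mki67 plus Top2a ran from the threshold of 4 UMIs to 251 (median 15). The 32 cells with exactly 4 UMIs held 1.36 UMIs of Mki67 per 10000, and the 33 cells just outside, with 3 UMIs, held 0.944. On the Lgr5 side, 62 cells would have been included but for a single Lgr5 UMI. A further 4 cells exceeded the goblet or Paneth limit.

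As a measure of cycle position, the UMIs of the mitosis list were taken as a share of mitosis plus replication UMIs, with a median of 157 such UMIs in a cell. The share had a median of 70.5% over the cells, with a 10th percentile of 28.0% and a 90th of 90.7%. In 109 cells it was 80% or more, in 97 cells from 50% to under 80%, and in 81 cells below 50%. The rule, which asks for Mki67 and Top2a, favours mitosis transcripts, and the other dividing classes chosen with it held more of them too: pooled mitosis and replication levels were 69.7 and 29.8 UMIs per 10000 here, 79.7 and 31.9 in dividing Lgr5 cells and 62.1 and 24.9 in dividing secretory progenitors. The replication list includes Pcna, the clamp of the replication fork, and Mcm6, a subunit of the replicative helicase.

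Among 1520 genes at 1 or more UMIs per 10000, the largest variation beyond counting noise was in Fabp6, the ileal bile acid-binding protein (detected in 80.5% of cells), followed by Atf3, a stress-induced transcription factor, the linker histone gene Hist1h1b and the lectin gene Clec2h. Reg3b, an antibacterial lectin, ranked 6 and Olfm4, a crypt base marker, ranked 10. After 281 cells were thinned to 4000 UMIs each, 6 shallower cells being left out, the stem list held a median of 6 UMIs a cell (10th to 90th percentile 1 to 22) and the early enterocyte list 32 (11 to 142). The 166 cells with 5 or more stem UMIs had a median of 22 early enterocyte UMIs, and the 36 cells with none or 1 had 101.

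The stem and early enterocyte sums ran against each other, with a Spearman rho of -0.62 over the 281 cells and of -0.87 to -0.21 within the 11 samples (median -0.64), negative in all 11. The antibacterial lectin genes Reg3b and Reg3g made up most of the early enterocyte sum, at 81.3 and 42.4 of 181 pooled UMIs per 10000. Its rho with Reg3b was 0.88, so it mainly follows these genes. The stem sum had a rho of -0.46 with Reg3b and of -0.36 with the mature enterocyte sum. Replication and ribosome biogenesis sums rose together from cell to cell (rho 0.45, within samples 0.11 to 0.82), as did mitosis and histone sums (rho 0.54, within samples 0.20 to 0.88). Replication and mitosis sums were only weakly related (rho -0.14, within samples -0.78 to 0.37). These are descriptions across cells, which share a library and a fixed total of UMIs. The stem sum had a rho of 0.25 with mitochondrial transcripts (within samples -0.13 to 0.73). The plot of cycle position and of the stem and enterocyte sums shows both spreads.

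**Figure D1:**
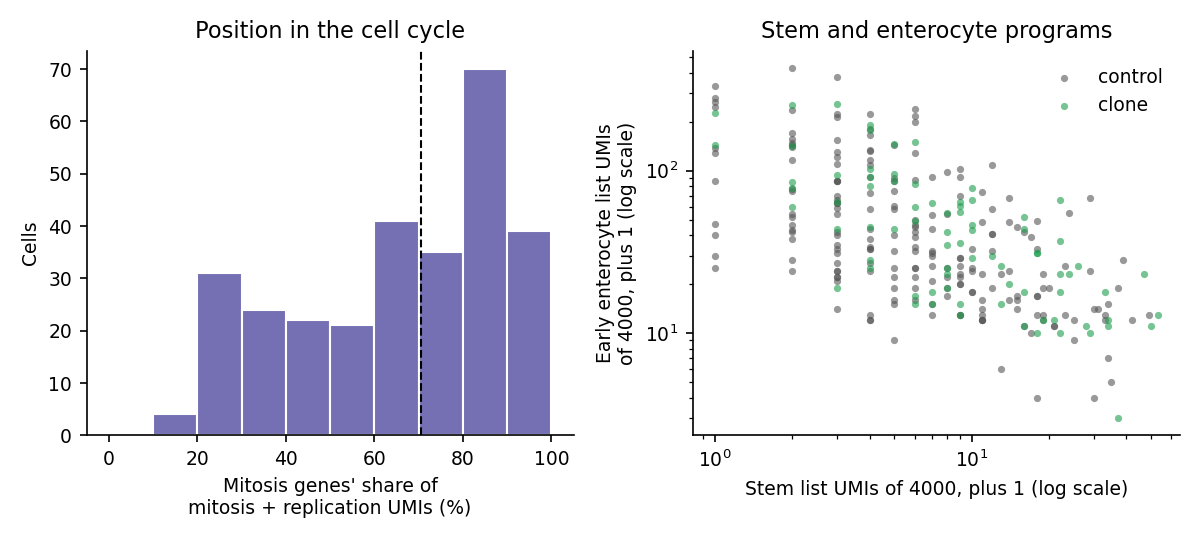
Left: number of cells by the share of mitosis list UMIs among mitosis plus replication UMIs (in percent, bins of 10 points, dashed line at the median of 70.5%). Right: UMIs of the early enterocyte list against UMIs of the stem list in each of 281 cells thinned to 4000 UMIs, both plus 1 on log axes, clone cells in green and control cells in grey. Cells with many stem UMIs lie mostly low on the enterocyte axis, and cells with few spread widely along it. The early enterocyte sum is mostly Reg3b and Reg3g.

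Against all other passing cells the ratios below are descriptions without a test, since the same counts chose the cells. Of 8599 genes at 0.1 or more UMIs per 10000, 91 (1.06%) had a median log2 ratio over the 11 samples above 1 and 320 (3.72%) below -1. Of the mitosis list, 31 of 51 expressed genes were above 1, as were 6 of 45 replication genes. Among genes at 1 or more UMIs per 10000 in these cells, the 15 with the largest ratios were Dmbt1, Pclaf, Ccna2, Knl1, Hist1h2ap, Cdca3, Top2a, Mki67, Birc5, Hist1h2ae, Cdc20, Kif11, Kif23, Smc2 and Lmnb1. All but Dmbt1 and Lmnb1 are genes of the cell cycle or of histones.

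Dmbt1, which encodes a secreted mucosal scavenger protein and takes no part in the cycle, led this order. It ran from 5.88 to 26.0 UMIs per 10000 in the 11 samples of these cells (median 18.8) and from 1.73 to 6.39 in the other cells (median 4.63), with a ratio above 0 in 11 of 11 samples. It was detected in 95.1% of the cells and in 53% of the others. Goblet products lay at the other end: Muc2, the main gel-forming mucin, was at 0.351 (median) against 30.5, a difference that the rule set. Olfm4, which the rule did not use, was at a median of 4.45 (2.62 to 18.3) against 17.6 (9.59 to 40.3), and was lower in 11 of 11 samples. All cells with an Lgr5 UMI were among the others by the rule. The Olfm4 difference goes with that choice and is no independent evidence. Fabp1, a fatty acid-binding protein of enterocytes, was close to 0 in every class, at 0.00335 UMIs per 10000 in these cells.

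Markers of cells outside the epithelium were at or near 0. Of 14 immune genes 9 were at 0, and 7 cells (2.44%) had any immune UMI. Endothelial and stromal lists had a UMI in 1 cell each and the erythroid list in none. The cadherin, keratin and EpCAM genes of the epithelial list stood at 99.2 to 130 UMIs per 10000 in the 11 samples. Other epithelial types left traces: a goblet gene was detected in 285 cells, an enteroendocrine gene in 67 and a tuft gene in 28, at medians of 4.06, 0.119 and 0.0474 UMIs per 10000 over the 11 samples. Muc2, the product of goblet cells, had a UMI in 54.0% of these cells at its low level and in 65.3% of the others, so such traces may be free RNA and are not read as expression.

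The share of these cells among passing cells was lower in clones than in control epithelium in 7 of 8 mice. In the 48 h mice the clone share was 0% (0 of 4 cells), 11.1% (2 of 18), 13.0% (6 of 46) and 12.5% (1 of 8), and the control share was 21.7%, 12.1%, 18.9% and 8.64% in mice 1 to 4. In the 72 h mice the clone share was 10.4%, 0%, 12.4% and 12.5%, and the control share 19.0%, 13.4%, 15.9% and 13.7% in mice 5 to 8. A count of 0 in the 4 cells of clone 1 allows a share of up to 75%, and in the 37 cells of clone 6 up to 8.11%, counting error alone.

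At 72 h the clone and control groups did not overlap, with means of 8.84% ± 5.97 (SD, n = 4) and 15.5% ± 2.60 (SD, n = 4). The difference of -6.66 percentage points had an exact two-sided permutation p of 0.0286, the smallest that 4 against 4 allows, and an exact sign-flip p of 0.125 within mice, the smallest for 4 mice. At 48 h the means were 9.16% ± 6.16 and 15.3% ± 6.01 (SD, n = 4 each), and the difference of -6.16 points did not exceed the spread between mice (exact permutation p = 0.257). It rested on clone 1, with 4 passing cells: without mouse 1 it was -0.978 points (exact permutation p = 0.9). Without mouse 6 the 72 h difference was -4.40 points (exact permutation p = 0.1, the smallest for 3 mice against 3). Over 8 mice it was -6.41 points (9.0% ± 5.62 against 15.4% ± 4.29, SD, n = 8 each; exact permutation p = 0.0200, exact sign-flip p = 0.0469). Adjusted by Benjamini-Hochberg over the 7 comparisons of shares, both exact permutation values became 0.100, above 0.05.

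The share differed between the times by less than the spread, by -0.325 points in clones (exact permutation p = 0.771) and by 0.169 points in control (exact permutation p = 0.971). The difference over 8 mice was smaller in settings that level the depth: with every cell thinned to 4000 UMIs it was -3.10 points (exact permutation p = 0.398), and with at least 2 UMIs of Mki67 plus Top2a per 10000 in place of 4 UMIs it was -1.66 points (exact permutation p = 0.778). Within pool 1 it was -3.95 points (exact permutation p = 0.2) and within pool 2 -8.87 (exact permutation p = 0.0857). Without mouse 1 it was -4.22 points (exact permutation p = 0.0752), and without mouse 5 -6.1 (exact permutation p = 0.0548).

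**Figure D2:**
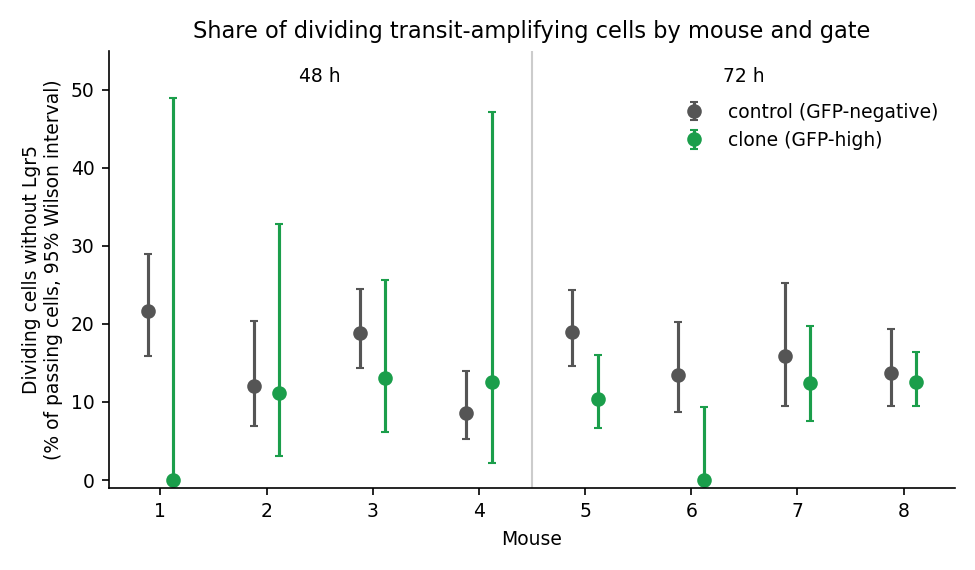
Percent of passing cells that were dividing cells without Lgr5, for each mouse (x axis) and gate, clone in green and control in grey, with 95% Wilson intervals that cover counting error only. The control point lies above the clone point in all mice but mouse 4, and clones 1 and 6 held none.

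Taken among dividing non-secretory cells only, the share without Lgr5 was 43.7% ± 29.6 (SD, n = 7) in clones and 62.0% ± 7.80 (SD, n = 8) in control. It ran from 0 to 100% in clones and from 50% to 73.3% in control, so the groups overlapped, and the difference of -18.3 points had an exact permutation p of 0.116 (0.270 adjusted over the 7 comparisons). Clone 3, whose 6 dividing non-secretory cells all lacked Lgr5, set the upper end. Clone 6, with 6 such cells and none without Lgr5, set the lower end. Mouse 3 was the only mouse whose clone lay above its control, and without it the clone lay below in 6 of 6 mice. The difference without mouse 3 was -26.7 points (unpaired exact permutation p = 0.00117, not adjusted). Without mouse 6 the difference was -11.5 points (unpaired exact permutation p = 0.273). These were the lowest and highest p of the 8 comparisons that each left out a mouse, so the result rested on which mouse was left out. The share itself moved with depth: in cells thinned to 4000 UMIs it was 70.7% ± 23.6 (SD, n = 6) in clones and 82.2% ± 7.22 (SD, n = 8) in control, with a difference of -11.5 points (exact permutation p = 0.210), so 0 UMIs of Lgr5 in a cell does not show that the gene was off. The effect of the gate and that of tracing cannot be told apart here.

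The cycle position of the cells was also compared between the gates. The mitosis share of cycle UMIs was 62.6%, 72.2%, 69.1% and 67.0% in clones 3, 5, 7 and 8, the clones with at least 3 of the cells, and 56.6% to 84.6% (median 72.5%) in the 8 control samples. The difference of -3.41 points (67.7% ± 4.01, n = 4, against 71.2% ± 7.96, n = 8, SD) had an exact permutation p of 0.444.

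Against dividing cells that met the same rule but held 1 or more Lgr5 UMIs, the transit-amplifying cells held fewer stem and Wnt target transcripts and more transcripts of the early enterocyte list, while most genes of the division lists did not pass the test. The comparison used 278 of the cells and 222 dividing Lgr5 cells in 11 samples each, summed per mouse and gate, with the sample as a block and the 13 rule genes left out. The 11 samples came from 8 mice, since mice 5, 7 and 8 gave both a clone and a control sample. In edgeR's quasi-likelihood test (Benjamini-Hochberg adjusted p under 0.05), 996 of 5274 genes were higher (18.9%) and 915 lower (17.3%). The cells were split on Lgr5 in the same counts, so genes that go with Lgr5 from cell to cell differ through that split. Levels are CPM, each gene's count scaled to a common library total, and differences are log2 fold changes with their standard error.

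Of the stem list 17 of 24 genes were tested and all 17 fell, with a median log2 fold change of -1.58 against -0.00 over all genes. Olfm4 (GRCm38 chromosome 14, 79984081 to 80023139, plus strand) had 289 to 2067 CPM (median 474) in the transit-amplifying cells and 2562 to 5930 (median 5010.0) in dividing Lgr5 cells. The ranges did not overlap, and the fall was -3.07 ± 0.18 (edgeR adjusted p = 7.4e-14), lower in 11 of 11 samples. Slc12a2, a sodium, potassium and chloride carrier of crypt cells, fell by 1.65 on the log2 scale, from a median of 1328 to 438 CPM, also without overlap. Pdgfa, a growth factor ligand for the mesenchyme, fell from 154 to 408 CPM to between 29.3 and 145.

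The Wnt list, which shares several genes with the stem list, had 8 of 9 tested genes lower (median -1.58). Axin2, a feedback inhibitor that reports Wnt signalling, had a median of 99.8 CPM (53.3 to 274) in these cells and 349 (209 to 423) in dividing Lgr5 cells. It was lower in 11 of 11 samples, with a change of -1.58 ± 0.12 (edgeR adjusted p = 1.1e-11), although the ranges overlapped. Cd44, Sox9, Myc and the ubiquitin ligase gene Rnf43, which dampens Wnt receptors, also fell, and only Ccnd1 (0.17 ± 0.09, edgeR adjusted p = 0.14) did not pass. Of the Notch list 3 of 5 fell: Hes1, the repressor of Atoh1, by 1.03 (median 310 against 614 CPM), Notch1 by 0.99 and Hes6 by 0.74.

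All 10 tested genes of the early enterocyte list (16 genes) rose, with a median of 1.81. Reg3b (GRCm38 chromosome 6, 78370657 to 78373466, plus strand) ran from 206 to 27575 CPM (median 5142) in the transit-amplifying cells and from 103 to 3281 (median 1452) in dividing Lgr5 cells. Samples differed widely and the ranges overlapped, and Reg3b was higher in 11 of 11 samples by 2.18 ± 0.14 (edgeR adjusted p = 3.2e-13). Reg3g, a related antibacterial lectin, rose by 2.07 and Dmbt1 by 2.28, from a median of 345 to 2009 CPM. Of the mature list 5 of 23 genes were tested and 2 rose: Fabp6 (GRCm38 chromosome 11, 43596049 to 43601540, minus strand) by 3.48 ± 0.27, from a median of 69.2 CPM to 883, and the disaccharidase gene Mgam by 0.24. Apob, the apolipoprotein of chylomicrons, did not pass (0.04 ± 0.14, edgeR adjusted p = 0.84).

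Among the genes with the largest changes outside the lists, St3gal4, a sialyltransferase, rose by 4.11 and Lgals3, the lectin galectin 3, by 2.95, neither with overlap between the groups. Edn1, the vasoactive peptide endothelin 1, fell most, by 5.50 ± 0.16: it had 1.03 to 21.5 CPM in the transit-amplifying cells and 95.8 to 586 in dividing Lgr5 cells. Thbs1 (an adhesion glycoprotein), Ccn1 (a matrix protein induced by growth signals) and Phlda1 fell by 3.16, 3.10 and 2.86. Krt19 and Krt8, keratins of simple epithelia, rose by 1.40 and 1.03 without overlap. Keratins did not go 1 way, since Krt18 fell by 0.72, from a median of 866 CPM to 487.

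Transcription factors of the absorptive lineage rose in 7 of 12 cases and fell in 1. Hnf4g and Hnf4a, nuclear receptors that drive enterocyte genes, rose by 0.55 and 0.24, Klf5 by 0.40 and the BMP targets Id1 and Id3 by 0.85 and 0.76, while Gata6 fell by 0.39. Of 23 oxidative phosphorylation genes encoded in the nucleus 19 rose and none fell (median 0.40), among them Atp5g1 (0.54 ± 0.07) and Cox6c (0.36 ± 0.07). Of 13 genes encoded in the mitochondrion, a group added after the values were seen, 11 rose (median 0.35). Folding genes of the endoplasmic reticulum rose in 12 of 13 cases (median 0.51). Ribosome biogenesis genes fell in 9 of 17 cases (median -0.31), including nucleolin, Ncl, by 0.66. MHC class II genes fell in 5 of 6 cases, H2-Eb1 by 1.11 and the invariant chain Cd74 by 0.48, and immediate early genes in 8 of 12, Egr1 by 1.35 and Jun by 1.22.

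Of 36 tested replication genes 34 did not pass and 2 fell, with a median of -0.13. Pcna had 73.3 to 253 CPM (median 184) in the transit-amplifying cells and 75.3 to 335 (median 206) in dividing Lgr5 cells, with a difference of -0.22 ± 0.15 (edgeR adjusted p = 0.27). Cdk1 and Ccnb1, the kinase and cyclin of mitotic entry, differed by -0.09 ± 0.14 and -0.17 ± 0.14 (edgeR adjusted p = 0.63 and 0.36). Of 49 mitosis genes 13 fell and 1 rose (median -0.23), a larger share lower than the 17.3% of all tested genes, with the kinetochore genes Cenpf and Cenpe falling by 0.57 and 0.45 and Cdca3 rising by 0.36. With cells under 10% mitochondrial UMIs the difference of Cdca3 was -0.039. Among cycle regulators Cdk6 fell by 1.35 and Cdk4 by 0.41, while the retinoblastoma gene Rb1 rose by 1.16 and Ccnd2 by 0.29.

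**Figure D3:**
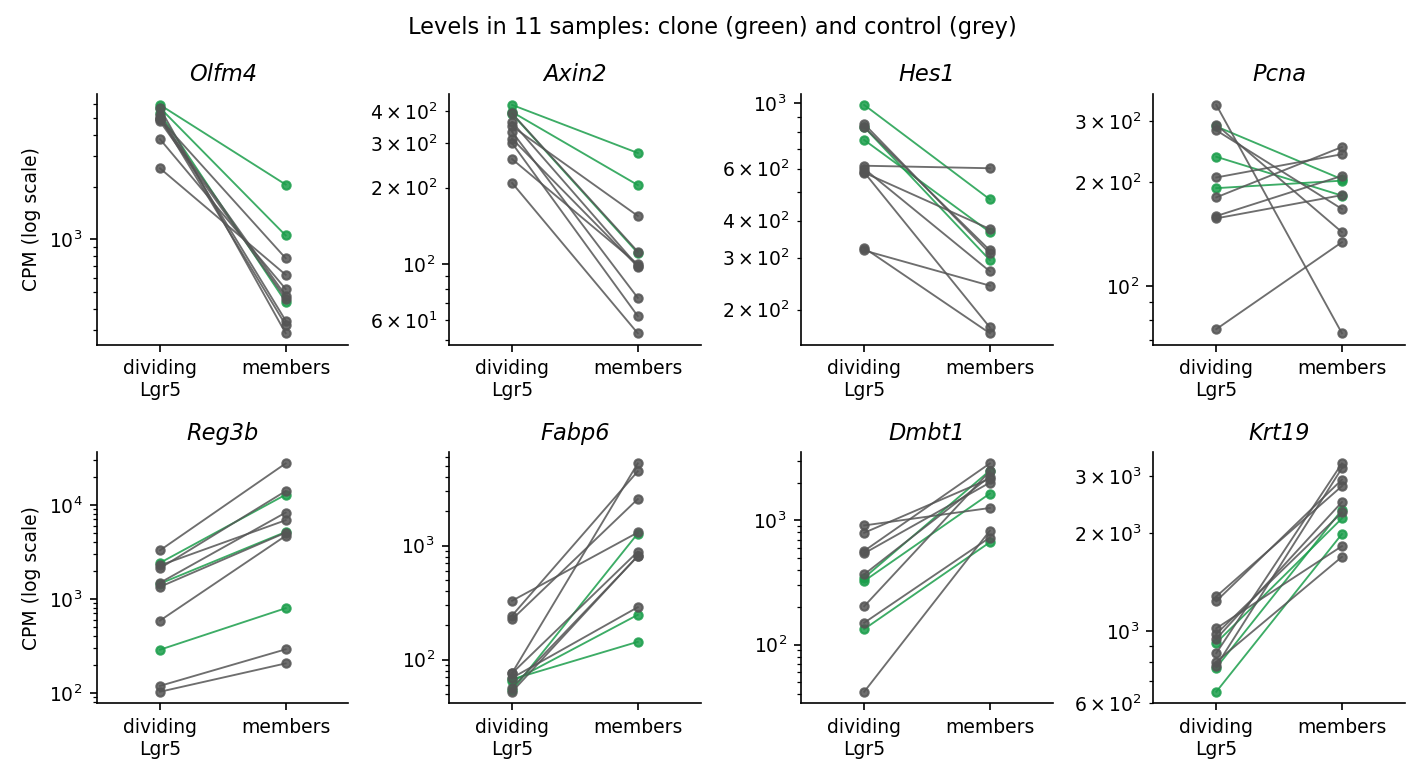
CPM (log axes, 1 panel a gene) in dividing Lgr5 cells and in the transit-amplifying cells (members) of 11 samples, each line joining the values of 1 mouse and gate, clone in green and control in grey. Olfm4, Axin2 and Hes1 fall in every sample, Reg3b, Fabp6, Dmbt1 and Krt19 rise in every sample, and the Pcna lines cross.

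Mitochondrial share and depth moved with this comparison: the median mitochondrial share was higher in the transit-amplifying cells than in dividing Lgr5 cells in 10 of 11 samples, and the median depth lower in 9 of 11. With cells under 10% mitochondrial UMIs only, 500 of 5579 genes were higher (8.96%) and 483 lower (8.66%), 15 of 17 stem genes fell and 8 of 9 early enterocyte genes rose. In that setting 14 of 23 oxidative phosphorylation genes rose, and of the 13 mitochondrially encoded genes none rose and 1 fell. Ribosome biogenesis then had 1 of 18 genes lower. With all cells thinned to 4000 UMIs 767 genes could be tested, of which 22 were higher (2.87%) and 24 lower (3.13%), with 4 of 7 stem genes lower and 4 of 5 early enterocyte genes higher. Of the 46 genes called after thinning, 44 were among those called before.

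Against dividing secretory progenitors, dividing cells with a UMI of Atoh1, Dll1 or Spdef, the transit-amplifying cells had far lower goblet transcripts. Most tested genes of the enterocyte lists were higher in the transit-amplifying cells. The comparison had 247 and 219 cells in 9 samples each, and mice 5 and 8 gave both a clone and a control sample. In edgeR's quasi-likelihood test 994 of 6782 genes were higher (14.7%) and 1124 lower (16.6%). All 8 goblet genes and all 7 secretory progenitor genes tested fell, with medians of -5.74 and -4.21. The split on Atoh1, Dll1, Spdef and goblet products went with these lists, so their direction is no independent evidence.

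Agr2, a protein disulfide isomerase needed for mucin folding, had 50.0 to 120 CPM (median 70.6) in the transit-amplifying cells and 3291 to 18254 (median 9226) in secretory progenitors, a fall of 6.80 ± 0.21 without overlap (edgeR adjusted p = 1.7e-21). Spink4 and Tff3, secreted goblet peptides, fell by 6.04 and 5.87. Of 15 endoplasmic reticulum folding genes 14 fell (median -0.88) and Canx, the lectin chaperone calnexin, rose by 0.27. Among those that fell was Hspa5, the main chaperone of that compartment, by 0.96, where it rose by 0.40 against dividing Lgr5 cells. Xbp1, the factor that expands the secretory apparatus, fell by 1.21 and rose by 0.66 against dividing Lgr5 cells.

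Of 7 mature enterocyte genes 6 rose against secretory progenitors (median 1.39), and of 12 early ones 8 rose and 2 fell. Fabp2, a gene for another fatty acid-binding protein, fell by 0.82 (median 152 against 278 CPM). Lgals4 fell by 0.47 (median 2892 against 3563 CPM). Sis, the sucrase-isomaltase gene, had 19.0 to 92.6 CPM (median 43.3) in the transit-amplifying cells and 0 to 10.2 (median 5.30) in secretory progenitors, a rise of 3.12 ± 0.26 (edgeR adjusted p = 5.6e-11) without overlap. Slc51a, a bile acid exporter subunit, rose by 3.06 and Fabp6 by 3.44, the latter in 8 of 9 samples. Apob rose by 1.39 (edgeR adjusted p = 4.1e-07), unlike in the comparison with dividing Lgr5 cells. Immediate early genes fell in 10 of 12 cases (median -1.20), Atf3 (-2.73) and Egr1 (-2.15) without overlap.

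The stem list was also lower here, in 9 of 15 genes (median -0.55): Olfm4 by 0.88 ± 0.25 (lower in 6 of 9 samples) and Sox9 by 1.10. Secretory progenitors were chosen whatever their Lgr5 count, while the rule left no Lgr5 UMI in the transit-amplifying cells. The fall of the stem list may thus come from that split and is no independent evidence. Of the Notch list 1 of 5 rose, the feedback gene Nrarp by 0.97, and Hes1 did not pass (0.16 ± 0.12, edgeR adjusted p = 0.33). Of division genes, 9 of 50 mitosis genes rose and 1 fell (median 0.16), and 7 of 42 replication genes rose (median 0.16), shares close to the 14.7% of all tested genes called higher. The cyclin gene Ccnd1 rose by 0.77, while Pcna (0.05 ± 0.13), Cdk1 (0.07 ± 0.16) and Ccnb1 (0.07 ± 0.15) did not pass. Oxidative phosphorylation genes rose in 17 of 23 cases (median 0.32). Mitochondrial share was higher in the transit-amplifying cells in 11 of 11 samples with at least 10 of them, and depth lower in 10 of 11, and with cells under 10% mitochondrial UMIs 18 of 23 of these genes rose.

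**Figure D4:**
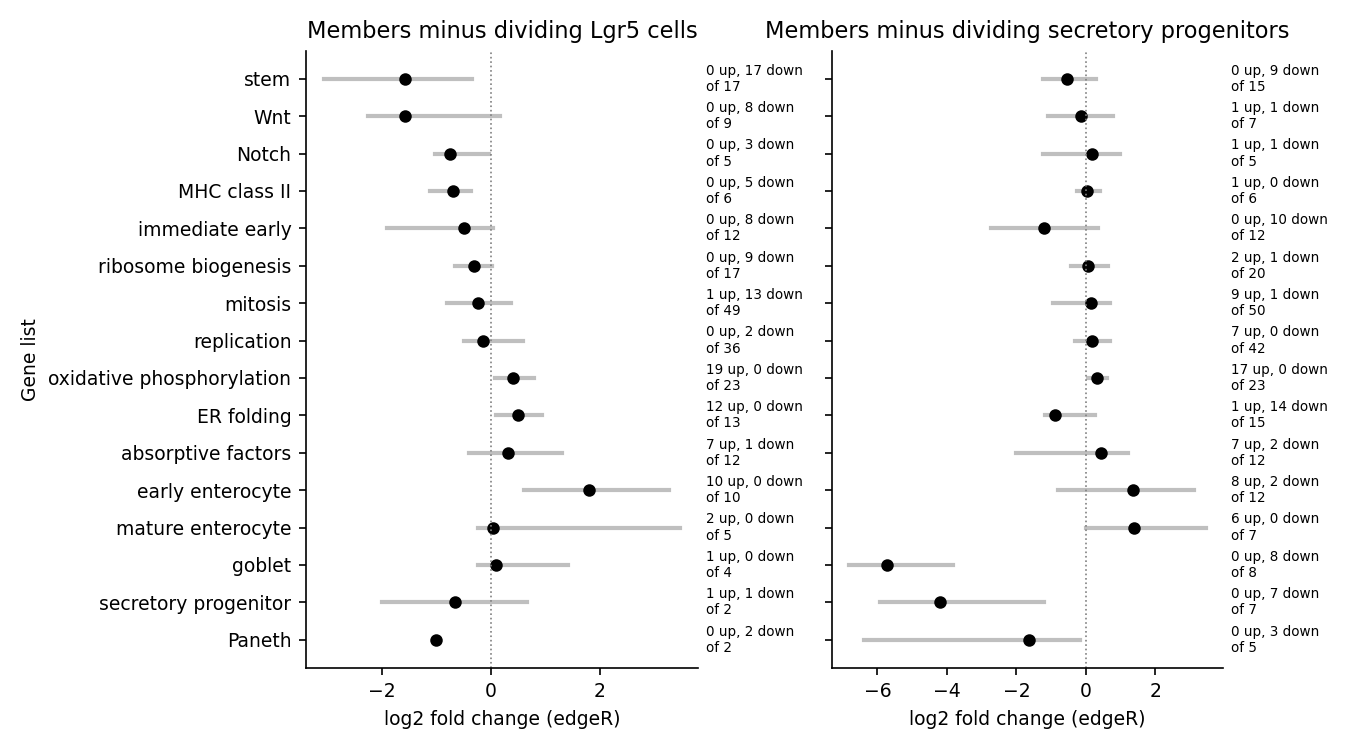
Log2 fold changes of the transit-amplifying cells (members) minus dividing Lgr5 cells (left) and minus dividing secretory progenitors (right) for 16 gene lists, black points being the median of the tested genes and grey bars the lowest to highest gene; the text beside each bar counts the genes called higher (up) and lower (down) by edgeR. Stem and Wnt lists lie left of 0 on the left panel, early enterocyte genes right of 0, and goblet and secretory progenitor genes far left of 0 on the right panel.

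The pooled levels can be set, as a description, beside those of 397 cells that met the rest of the rule with fewer than 4 UMIs of Mki67 plus Top2a, a mixed set that also held enteroendocrine transcripts (35.1 UMIs per 10000). Early enterocyte transcripts stood at 50.5 UMIs per 10000 in dividing Lgr5 cells, 181 in the transit-amplifying cells and 341 in the non-dividing set, and mature ones at 10.7, 27.1 and 111. Reg3b and Reg3g made up most of the early level in the transit-amplifying cells. Stem transcripts stood at 81.0, 18.4 and 15.5. On these values the stem transcripts of the transit-amplifying cells were nearer those of the non-dividing set. Both sets were chosen with 0 UMIs of Lgr5, and the dividing Lgr5 cells with 1 or more. The placement by stem transcripts goes with that choice and is no independent evidence. Mature enterocyte transcripts of the transit-amplifying cells were nearer those of dividing Lgr5 cells. All these are levels of pooled cells, without a range over samples.

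Within the transit-amplifying cells, traced clones and control epithelium could be compared at 72 h, where 3 clone samples (74 cells, mice 5, 7 and 8) and 4 control samples (103 cells) held at least 10 of the cells. No gene passed in edgeR's quasi-likelihood test with pool as a covariate: 0 of 6325 (0.0%), with 240 genes under 0.05 before adjustment, none under 0.63 after it, and 0 also by DESeq2. The lowest unadjusted values belonged to Guca2a, the guanylin hormone (-1.37 ± 0.29), and Sis (-1.55 ± 0.34), both with an edgeR adjusted p of 0.63. A second fit, with the mouse as a block and pool as a covariate, compared the clone and control cells of mice 5, 7 and 8. In it 3 of 6263 genes were higher in clones (0.0479%) and 10 lower (0.16%), each in 3 of 3 mice. This fit had 1 residual degree of freedom, so the spread of a gene was largely borrowed from other genes. Its p-values therefore do not measure the spread between the 3 mice. Only mouse 5 had its clone cells in pool 2, so gate and pool are told apart through that mouse alone.

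The 3 higher genes were Olfm4, Axin2 and Ifitm3, an interferon-induced membrane protein also found in crypt base cells. Olfm4 had 1024, 2032 and 426 CPM in clones 5, 7 and 8 and 441, 334 and 279 in control cells from these 3 mice, with 617 in control 6. The groups overlapped, and the blocked difference was 1.40 ± 0.24 (edgeR adjusted p = 0.024), against 1.42 ± 0.35 without the block (edgeR adjusted p = 0.999). Axin2 had 199, 269 and 108 CPM in the clones and 94.7, 109 and 71.1 in the control cells of mice 5, 7 and 8, a blocked difference of 0.99 ± 0.19 (edgeR adjusted p = 0.042).

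The 10 lower genes were Fabp6, Krt20, Clec2h, St3gal4, Sis, Serpinb1a, Mgat4c, Spink1, Guca2a and Fos. Fabp6 had 139, 243 and 1241 CPM in clones 5, 7 and 8 and 777, 864 and 5071 in their control cells, a blocked difference of -2.22 ± 0.15 (edgeR adjusted p = 3.8e-07). It differed widely between mice, and clones and control overlapped. Sis had 19.9, 26.4 and 33.4 CPM in clones and 59.1 to 93.6 in the 4 control samples without overlap, yet the 48 h control samples reached down to 19.1. Krt20, a keratin of differentiated enterocytes, differed by -2.70 ± 0.36 with the block and had no overlap at 72 h, and again the 48 h control samples, down to 33.5 CPM, reached into the clone range of 4.97 to 49.5.

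By list, 14 of 15 stem genes had a positive unblocked difference (median 0.44) and 7 of 7 Wnt genes (median 0.64), while 11 of 12 early enterocyte genes were negative (median -0.37), with none called; the median of all genes was -0.00. The blocked fit called 2 of 15 stem genes higher and 3 of 12 early enterocyte genes lower. Replication had 31 of 42 positive (median 0.18) and mitosis 15 of 49 (median -0.08), again with none called. Without mouse 8 the replication median was -0.03, and without mouse 7 the mitosis median was 0.13. The gate and the tracing cannot be told apart in these values, since GFP-high cells may have been brighter for Lgr5. The median mitochondrial share was 8.04%, 13.9% and 14.1% in clones 5, 7 and 8 and 12.6%, 10.6% and 12.7% in their control cells, so it did not go 1 way.

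**Figure D5:**
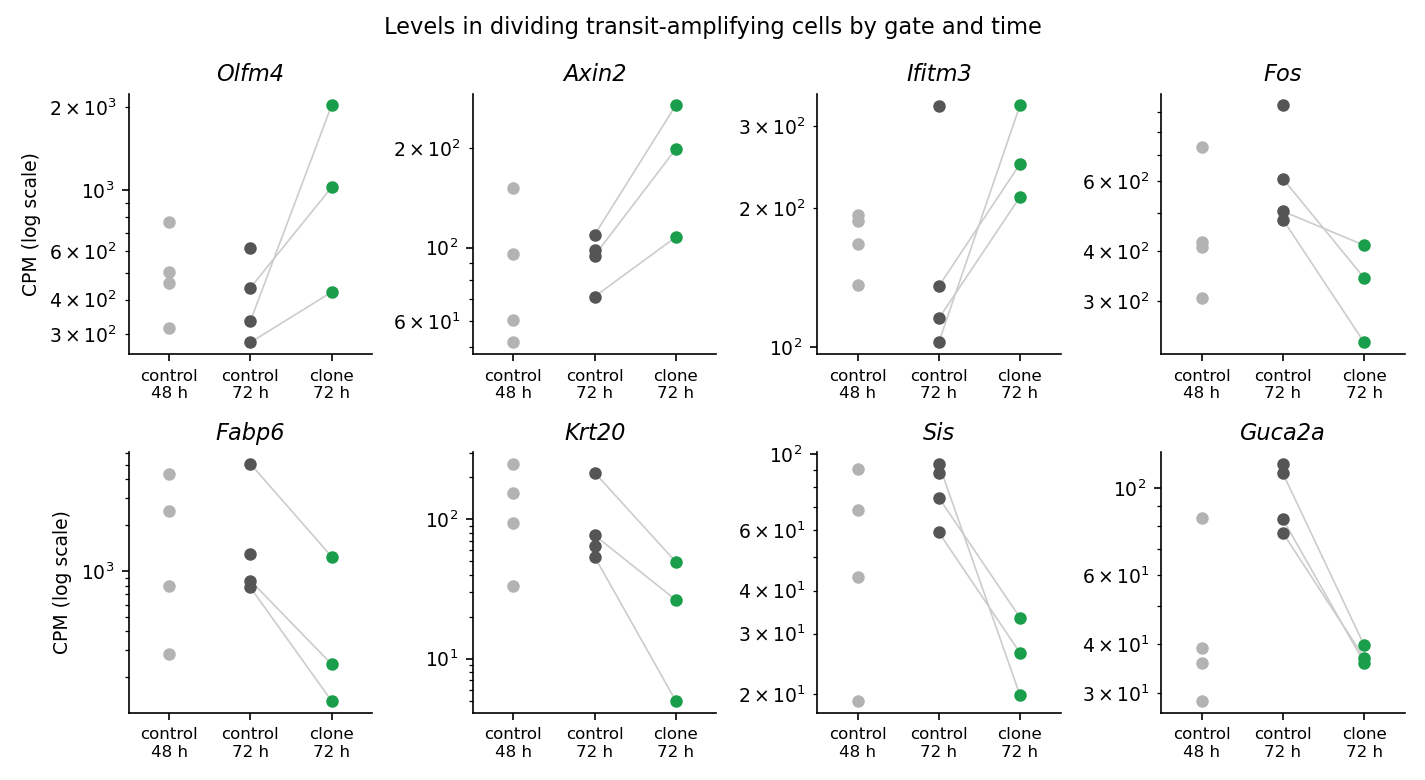
CPM (log axes, 1 panel a gene) in the transit-amplifying cells of 4 control samples at 48 h, 4 control samples at 72 h and 3 clone samples at 72 h, with grey lines joining the control and clone cells of mice 5, 7 and 8. Olfm4, Axin2 and Ifitm3 are higher and Fos, Fabp6, Krt20, Sis and Guca2a lower in the clone cells of each of the 3 mice.

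At 48 h clones held 9 of the cells in all (2, 6 and 1 in mice 2, 3 and 4), too few for a test of genes. Olfm4 was at 52.2, 11.1 and 3.67 UMIs per 10000 in these, Reg3b at 34.1, 27.7 and 12.1 and Dmbt1 at 4.54, 23.7 and 18.3, with 4402, 69299 and 19087 UMIs behind them. In control epithelium, 72 h against 48 h (103 and 101 cells, 4 samples each), no gene of 6325 passed in edgeR's quasi-likelihood test (0.0%; 557 genes under 0.05 before adjustment and none under 0.13 after it). DESeq2 called 1 gene, and without mouse 8 edgeR called 91 (80 higher and 11 lower at 72 h), so this count rested on that mouse.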

How the data were processed

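Droplet single-cell RNA libraries of 2 pools, with hashtag antibodies for 8 mice, were analysed. Per the submitters' processing notes, reads were processed with Cell Ranger 6.1.2 on mm10. The deposited matrices hold raw UMI counts per gene and raw counts per hashtag for each barcode (3342 and 2110 barcodes, 30278443 and 28050962 gene UMIs). The other deposited files hold names of genes and barcodes.

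Each cell was given to the mouse of its top hashtag. Cells needed 1000 gene UMIs, 500 genes, under 20% mitochondrial UMIs and 60% of hashtag counts in the top hashtag, a limit meant for doublets of different mice. No doublet caller was run. A mouse and gate is a sample. The mouse is the replicate, except between classes, where the sample was the block. The cells, gene lists and tests were chosen with earlier results of these data known.

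UMI counts were summed per sample and class, for sums of at least 10 cells (200785 to 1012177 UMIs for the transit-amplifying cells). They were tested with edgeR 4.0.16 (filterByExpr, TMM, quasi-likelihood F test, Benjamini-Hochberg adjusted p under 0.05) in R 4.3.3, which was also tested on simulated data. The comparisons between classes had the sample as a block and left out the 13 genes of the rule. The comparisons between gates and between times had pool as a covariate and shared 11 sums. Shares were compared over mice with exact two-sided permutation tests (scipy 1.17.1), and their intervals are 95% Wilson intervals. These intervals cover counting error only.

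Clone and control cells with the same number came from the same mouse. Their residuals correlated at 0.285, 0.162 and 0.309 in mice 5, 7 and 8, so the numbers pair the samples, and the blocked values are given beside the results they change. P-values measure the spread between samples of these mice, and edgeR also draws on the spread of other genes. Between classes the sample and not the mouse was the block. Those p-values therefore do not measure the spread between mice. Alternatives were DESeq2 1.42.0, other limits on UMIs, hashtags, mitochondrial share and cells per sum, no filter on low counts, thinning to 4000 UMIs (seed 1), and each mouse left out.

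Genes were named by rule: for each edgeR comparison the 10 called genes with the largest fold each way at an average log2 CPM of at least 5, up to 6 called genes and the 3 most abundant genes of each list, and for the description against other cells the 15 largest ratios. The genes of the clone comparison with a mouse block are all that were called. Hist1h1b and the genes of the rule were named outside it, Hist1h1b after its values were seen. A few genes that met the rule are not reported here by name, but stay in the fits and the counts over lists. Gene positions are from GENCODE M21 (GRCm38). Promoters came from RefSeq, build GRCm38.p6, with the 250 bases before the start used.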

Additional observations from a re-analysis of the deposited data

Results flagged for a closer look

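Among 21 groups of 4 to 10 samples, 3 values lay far from the rest of their group by Dixon's criterion, where chance marks about 1 in 20 groups. In the 48 h clones, mouse 1 had a share of 0% transit-amplifying cells, from 4 passing cells, against 11.1% to 13.0% in the other mice. In the 72 h clones, mouse 6 had a share of 0% from 37 passing cells, against 10.4% to 12.5% in the other mice. In the same sample the share without Lgr5 among dividing non-secretory cells was 0%, from 6 cells, against 38.9% to 42.5%.

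Barcodes that the mitochondrial limit left out also held such cells. Of 1381 barcodes with 20% to 50% mitochondrial UMIs that passed the other filters, 232 (16.8%) met the rest of the rule, beside 14.3% of the cells under 20%. They came from 86 of 580 clone and 146 of 801 control barcodes and had a median of 7922 UMIs. Their levels were 8.87 UMIs per 10000 of Mki67, 10.1 of Top2a, 6.96 of Olfm4, 4.22 of Fabp6, 25.5 of Reg3b and 17.7 of Dmbt1.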

How the results depend on the processing

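The share of transit-amplifying cells, clone minus control, was sensitive to the processing. At 72 h (-6.66 points) too few samples were left within pool 1 (-3.77) or pool 2 (-9.54) for the exact test to reach 0.05, whatever the values. The 72 h difference no longer passed 0.05 with 8 UMIs (-3.86), with 2 UMIs per 10000 (-5.68) or with 80% of hashtag counts (-12.8). Nor did it pass 0.05 with mitochondrial shares under 10% (-4.98) or under 50% (-5.54), or thinned (-3.88). Over 8 mice (-6.41) the difference no longer passed 0.05 within pool 1 (-3.95) and pool 2 (-8.87), with 2 UMIs per 10000 (-1.66), under 10% mitochondrial (-3.82) and thinned (-3.10). At 48 h 2 UMIs per 10000 turned the sign (2.37). Between times the sign turned in clones with 8 UMIs (2.97), under 10% (0.336) and under 50% mitochondrial (2.57), and in control within pool 1 (-0.669), with 8 UMIs (-0.616) and with 2 UMIs per 10000 (-1.09). The share without Lgr5 passed 0.05 within pool 2 (-37.9), with 2 UMIs (-22.8) and under 50% mitochondrial (-26.3). The mitosis share of cycle UMIs turned to 3.66 under 10% mitochondrial. The cause was not tested. Leaving out each mouse gave -9.50 to -0.978 at 48 h, -8.50 to -4.40 at 72 h, -7.87 to -4.22 over 8 mice, -3.38 to 2.62 between times in clones, -2.06 to 2.30 in control, -26.7 to -11.5 for the share without Lgr5 and -5.49 to -1.49 for the mitosis share. The settings under 50% mitochondrial and without mitochondrial genes were chosen after seeing the data.

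Genes called between clone and control at 72 h (0) were 1 under 10% mitochondrial, 18 with no filter on low counts, 13 with the mouse as a replicate block, and 0 to 1 with a mouse left out. Between times in control (0) they were 5 under 10% mitochondrial, 70 with no filter, 1 by DESeq2 and 0 to 91 with a mouse left out. Against dividing Lgr5 cells 1911 genes were called in all, 983 under 10% mitochondrial, 46 when thinned (767 genes tested) and 1440 to 2052 with a mouse left out. Against secretory progenitors 2118 were called, 1305 under 10% mitochondrial and 1522 to 2178 with a mouse left out. Without the replicate block the pairing by sample was dropped and 1831 and 1825 genes were called. Of 104 named called genes against Lgr5 cells, 87 were called with every mouse left out in turn, and of 104 against secretory progenitors, 78. Those that turned sign were Ccl25 (-0.032), Cdh1 (0.18) and Nop56 (0.062) when thinned, and Cdca3 (-0.039) under 10% mitochondrial. The thinned comparison with secretory progenitors could not be fitted, since too few samples kept 10 cells of both classes. The 48 h clones held 9 of the cells in all, which allowed no test of genes.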
